A study of Homo sapiens with 3 samples.

Results

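The transcriptome of Cal-33 cells given an siRNA against p53 was set against that of cells given a control siRNA, gene by gene. Genes entered where TPM, the share of a gene's transcripts in its library, was at least 5 in 1 or both libraries. Pseudogenes, clone symbols, LOC symbols and read-through symbols that join a pair of genes were left out. This kept 9927 of 28890 listed symbols, of which 9907 were protein-coding.

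Cal-33 is an established line of human tongue squamous cell carcinoma. The series holds 3 RNA-seq libraries made 72 h after transfection, with 1 library per group: sip53 (p53 siRNA), siBACH1 (siRNA against BACH1, a heme-responsive repressor) and siControl (control siRNA). All 3 groups are labelled as the same line with the genotype WT and differ by label in their siRNA alone. As background, Cal-33 is known to carry a missense mutation in its p53 gene, which the labels do not mention. With 1 library per group no test, standard error or p-value can be had, and every value describes these libraries. The depth of the libraries is unknown, since it cannot be read from TPM.

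p53 is a transcription factor that is stabilised after DNA damage and that turns on genes of cell cycle arrest, DNA repair and cell death. In cells that keep normal p53 it also lowers many cell cycle genes indirectly, through the inhibitor p21 (CDKN1A), the retinoblastoma family and the repressor complex DREAM, whose core includes LIN37. Among these genes are those that license replication origins: ORC, CDC6 and CDT1 load the MCM helicase onto DNA, and CDC45 and GINS then join it to form the active helicase.

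Each difference is given as log2((sip53 + 1)/(siControl + 1)) after division of the sip53 column by 0.949, the median ratio over kept genes, so that a positive value means higher in sip53. The pseudocount of 1 TPM understates the difference of weakly expressed genes. Values for siBACH1 were made the same way. They stand beside the others as a second library and share the control, so the differences from it are not independent.

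The difference between the p53 knockdown and the control was small for most genes. In 80.5% of kept genes it was under 1.2-fold, the middle 50% lay between -0.14 and 0.13 on the log2 scale, and the standard deviation across genes was 0.23, as it was in siBACH1. At least 1.5-fold higher in sip53 were 82 genes (0.826%), and at least 1.5-fold lower were 88 (0.886%). Without the rescaling, the counts at 1.5-fold were 52 higher and 151 lower. At 2.0-fold, with it, the counts were 11 higher (0.111%) and 9 lower (0.0907%). Genes past 1.5-fold in either direction made up 4.88% of the 1577 genes at 5 to 10 TPM, 1.12% of the 3139 genes at 20 to 50 TPM and 0.379% of the 1318 genes at 100 TPM or more. Just inside the threshold lay ANKRD36 and NBEAL1 (both 0.59) on the higher side, and GLI4 and MCAT (both -0.59) on the lower. Just outside lay AP4S1 and HLA-DRA (both 0.58), and IL27RA and RAB36 (both -0.58).

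**Figure D1:**
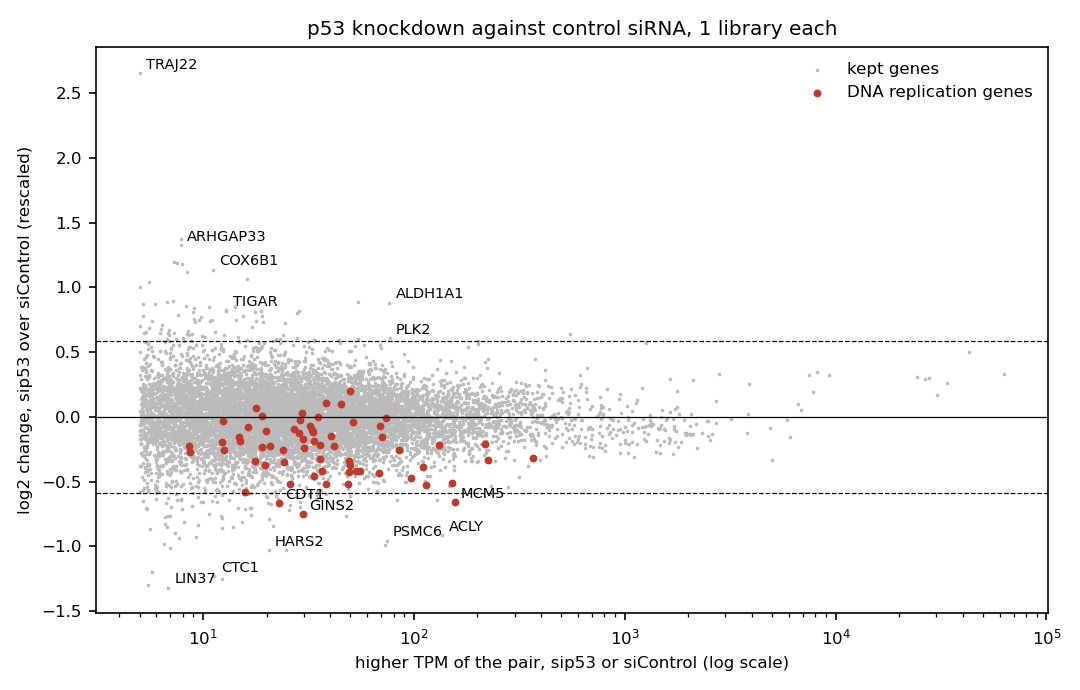
Log2 difference of sip53 over siControl (vertical axis) against the higher TPM of the pair (horizontal axis, log scale) for kept genes, 1 library each, without the transcript targeted by the siRNA. Dashed lines mark 1.5-fold. DNA replication genes (red) sit mostly below 0, with GINS2, CDT1 and MCM5 below the lower line, and the scatter is wider at low TPM.

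The difference followed the base composition of the transcripts. Across 9921 genes with a GENCODE v29 transcript, the Spearman correlation of the log2 difference with transcript GC content was -0.46 in sip53 and -0.26 in siBACH1. These points are genes of the same pair of libraries and not replicates. In the tenth of genes with the lowest GC content (median 37.1%) the median difference was 0.12, with 12 genes at least 1.5-fold higher and 3 lower. In the tenth with the highest (median 64.0%) it was -0.18, with 4 higher and 27 lower. Genes at least 1.5-fold higher had a median GC content of 44.2% and those lower one of 56.6%, against 48.3% over all kept genes. After subtraction of a running median along GC content, 83 genes (0.837%) lay past 1.5-fold on the higher side and 58 (0.585%) on the lower side. Of the genes counted before, 60 of 82 and 50 of 88 stayed past 1.5-fold. Values called GC-adjusted are those after this subtraction. What gave the trend, and its part in the differences of single genes, was not tested.

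**Figure D2:**
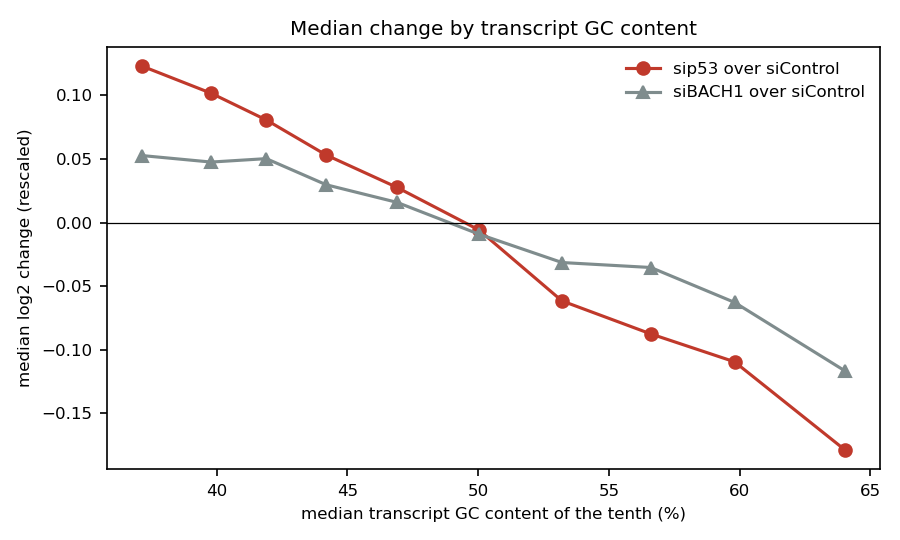
Median log2 difference of sip53 over siControl (red circles) and of siBACH1 over siControl (grey triangles) in 10 equal groups of genes ordered by transcript GC content (percent). The sip53 medians run from 0.12 in the lowest group to -0.18 in the highest, and those of siBACH1 from 0.05 to -0.12.

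The library kept the squamous profile of the line. All 7 squamous and general epithelial markers (KRT5, KRT14, KRT6A, KRT17, TP63, EPCAM, CDH1) were above 5 TPM. Their summed levels were 6533 TPM in sip53, 4449 TPM in siBACH1 and 7163 TPM in siControl. Most of each sum for sip53 and siControl came from the highest gene, at 4375 TPM in sip53 and 4883 TPM in siControl. None of 11 fibroblast markers reached 5 TPM, with 2 of them listed at 0 and sums of 6.36, 7.08 and 5.63 TPM in sip53, siBACH1 and siControl. Of 16 immune and endothelial markers 2 did (CD68 and CDH5), 6 were listed at 0, and the sums were 53.5, 61.8 and 56.5 TPM in the same order.

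Genes of origin licensing lay below the control in sip53. Of all 9927 kept genes, 0.886% were at least 1.5-fold lower, 4963 were negative and the median was 0.00. Among 15 kept members of the licensing list, 2 were at least 1.5-fold lower (CDT1 and MCM5) and 0 were higher. A negative difference was seen in 12 of the 15, with a median of -0.37. GC-adjusted, the median was -0.35, all 15 were negative and 0 passed 1.5-fold. In siBACH1 the median was 0.02, with 6 of 15 negative. The helicase activation list, which holds GINS and CDC45, had 1 of 13 members at least 1.5-fold lower (GINS2), 12 negative and a median of -0.23. GC-adjusted, its median was -0.25, and in siBACH1 it was 0.02. The replicative polymerases with their clamp and fork proteins had 0 of 35 past 1.5-fold, 33 negative and a median of -0.23. GC-adjusted, their median was -0.25, and in siBACH1 it was 0.02. The median GC content of the 3 lists together was 48.1%, close to that of all kept genes. Of the members past 1.5-fold, CDT1 had 64.9%, MCM5 56.6% and GINS2 49.1%. In bulk RNA, fewer cells in S phase and less of these transcripts per cell cannot be told apart.

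CDT1, the protein that brings the MCM helicase to origins (chromosome 16, 88803789 to 88809258 in RefSeq on GRCh38.p14), was at 13.4 TPM in sip53, 21.7 TPM in siBACH1 and 23.0 TPM in siControl. Its difference was -0.67, or -0.49 GC-adjusted, which is under 1.5-fold. GINS2, a subunit of the GINS complex (chromosome 16, 85676198 to 85688954), was at 16.3 TPM in sip53, 21.6 TPM in siBACH1 and 29.6 TPM in siControl. Its difference was -0.75, and -0.76 GC-adjusted. For CDT1 the siBACH1 and control libraries lay close together and sip53 stood alone, while for GINS2 siBACH1 lay between the others, with a difference from the control of -0.35.

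The 6 subunits of the MCM2 to MCM7 ring were all lower in sip53. Their summed level was 561 TPM in sip53, 699 TPM in siBACH1 and 798 TPM in siControl, a sip53 to control ratio of 0.703 on the deposited scale. MCM5 was at 93.6 TPM in sip53, 143 TPM in siBACH1 and 156 TPM in siControl (-0.66, or -0.57 GC-adjusted, under 1.5-fold). MCM2 was at 74.5, 94.3 and 114 TPM in sip53, siBACH1 and siControl (-0.53). MCM7, at 100.3, 153 and 151 TPM in the same order, differed by -0.51. MCM6 (-0.43) and MCM3 (-0.39) followed, and MCM4 differed least, at 178 TPM in sip53, 160 TPM in siBACH1 and 217 TPM in siControl (-0.21). MCM4 was lowest in siBACH1 and not in sip53, unlike the other 5 subunits.

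The origin recognition complex was uneven. ORC1, its largest subunit and the one whose level changes over the cell cycle, was at 9.66 TPM in sip53, 15.3 TPM in siBACH1 and 15.7 TPM in siControl (-0.58, just under 1.5-fold). ORC2 to ORC6 lay between -0.10 and 0.10. CDC6, which loads MCM together with CDT1, was at 36.1, 39.7 and 49.6 TPM in sip53, siBACH1 and siControl (-0.37). Geminin (GMNN), the inhibitor of CDT1, was at 62.2, 73.2 and 68.8 TPM in the same order (-0.07). The inhibitor thus lay near the median of all genes while the factor it binds did not.

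**Figure D3:**
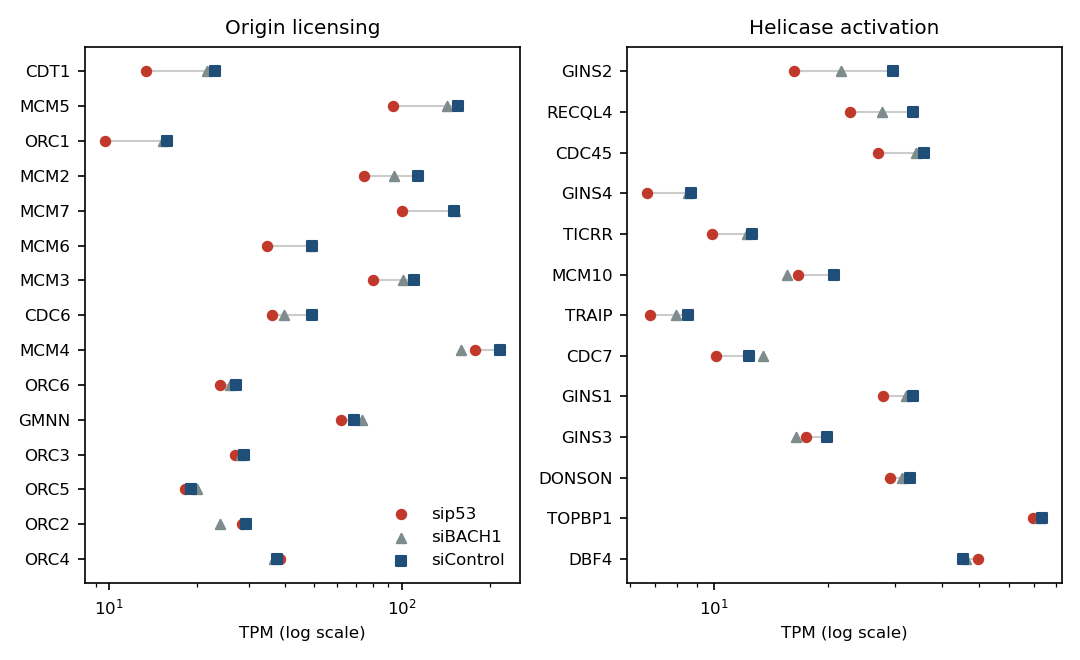
TPM (log scale) of each member of the origin licensing list (left) and the helicase activation list (right) in sip53 (red circles), siBACH1 (grey triangles) and siControl (blue squares), ordered by the log2 difference of sip53 over siControl with the lowest on top. The sip53 and siControl points lie farthest apart for CDT1, MCM5 and ORC1 on the left and for GINS2 on the right.

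Promoters of 4 genes of these complexes are printed because the lists they belong to held the letters of E2F sites in many members, and E2F factors are known regulators of replication genes. Each is the RefSeq window of 250 bases before to 50 bases after the gene start (GRCh38.p14), written along the gene. GINS2 is at chr16:85688905-85689204 on the minus strand, CDT1 at chr16:88803539-88803838 on the plus strand, MCM6 at chr2:135876394-135876693 on the minus strand and MCM7 at chr7:100101348-100101647 on the minus strand. Capitals mark matches to any of TTTGGCGC, TTTCCCGC, TTTCGCGC, TTTGGCGG or TTTCCCGG on either strand.
GINS2: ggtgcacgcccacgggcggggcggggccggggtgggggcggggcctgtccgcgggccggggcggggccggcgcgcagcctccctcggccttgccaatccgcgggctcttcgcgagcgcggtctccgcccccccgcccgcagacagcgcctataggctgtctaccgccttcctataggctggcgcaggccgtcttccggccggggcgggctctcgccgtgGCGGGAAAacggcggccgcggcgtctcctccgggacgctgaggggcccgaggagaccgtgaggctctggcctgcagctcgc
CDT1: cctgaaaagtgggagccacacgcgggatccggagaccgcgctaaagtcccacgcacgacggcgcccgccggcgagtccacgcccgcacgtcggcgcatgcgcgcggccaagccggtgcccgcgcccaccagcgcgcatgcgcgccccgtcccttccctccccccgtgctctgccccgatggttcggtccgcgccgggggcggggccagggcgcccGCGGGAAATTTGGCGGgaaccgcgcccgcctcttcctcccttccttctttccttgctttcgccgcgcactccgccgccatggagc
MCM6: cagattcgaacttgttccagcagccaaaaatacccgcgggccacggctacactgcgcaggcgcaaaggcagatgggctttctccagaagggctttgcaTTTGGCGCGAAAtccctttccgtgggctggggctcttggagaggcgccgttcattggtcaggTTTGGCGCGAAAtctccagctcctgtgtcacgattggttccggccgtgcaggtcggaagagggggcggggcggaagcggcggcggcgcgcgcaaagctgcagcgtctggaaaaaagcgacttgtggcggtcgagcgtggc
MCM7: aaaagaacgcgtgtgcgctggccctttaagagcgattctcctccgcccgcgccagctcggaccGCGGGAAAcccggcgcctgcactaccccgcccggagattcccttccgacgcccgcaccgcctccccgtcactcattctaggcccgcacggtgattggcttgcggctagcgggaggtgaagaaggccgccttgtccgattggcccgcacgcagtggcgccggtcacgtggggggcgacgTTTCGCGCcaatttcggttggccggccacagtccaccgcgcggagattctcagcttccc
Positions count from the gene start, with -1 the base before it. In GINS2 the match begins at -31. In CDT1 matches begin at -35 and -27, one on each strand and next to each other. In MCM6 each of 2 blocks holds TTTGGCGC on the strand shown and TTTCGCGC on the other, and these overlap. In MCM7 the matches begin at -187 and -9. The 4 printed promoters all hold matches, while the windows of ORC1, RFC4 and RNASEH2A, also lower in sip53, hold none of the full strings. Those of ORC1 and RFC4 hold strings that differ in the first base alone and were not counted. The ORC1 window (chromosome 1, 52404374 to 52404673) lies inside the gene, which starts at 52409503 on the minus strand. The CDC45 window (chromosome 22, 19479670 to 19479969) also lies inside its gene, which starts at 19479466 on the plus strand.

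Such letters were in 7 of 13 licensing promoters (53.8%), in 7 of 10 in the helicase activation list (70.0%) and in 13 of 31 in the polymerase and fork list (41.9%). Over all 8265 kept genes with a promoter it was 715 (8.65%). MCM5 had no entry. The letters TTTGAA, the cell cycle homology region of late cell cycle genes, were read on either strand in 19 of 29 promoters of the mitosis list (65.5%), in 3 of 54 of the 3 replication lists together (5.56%) and in 770 of all kept genes (9.32%). Licensing genes with an E2F match had a median difference of -0.43, and the 6 without one a median of -0.03. Those without were GMNN, ORC2, ORC4, ORC5, ORC6 and ORC1, of which ORC1 stood at -0.58. Over the 3 lists together the medians were -0.25 with a match and -0.23 without, so the split of the licensing genes did not extend to the other lists. Over all kept genes they were -0.03 with and 0.00 without. A match describes letters in a window and is no evidence of binding, and the lack of one does not show that a site is absent.

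At the fork, RFC4, a subunit of the loader of the sliding clamp PCNA, was at 66.1 TPM in sip53, 84.1 TPM in siBACH1 and 96.7 TPM in siControl (-0.47). RFC1, the large subunit, was at 45.1, 53.7 and 44.4 TPM in the same order (0.10). PCNA itself was at 281, 359 and 369 TPM (-0.31). CHTF18, of an alternative clamp loader, was at 16.8, 22.7 and 25.7 TPM (-0.52, or -0.31 GC-adjusted). RNASEH2A, the catalytic subunit of the enzyme that removes ribonucleotides from DNA, was at 25.2, 40.8 and 38.3 TPM (-0.52). ASF1B, a histone chaperone, was at 31.9, 41.5 and 48.5 TPM (-0.51). Below -0.40 were also POLE4 (-0.44), a subunit of polymerase epsilon, UHRF1 (-0.42), which helps to maintain DNA methylation, the loader subunit RFC2 (-0.42) and the flap nuclease FEN1 (-0.42). RPA2 (-0.00), TIPIN (0.07) and RFC1 were at the other end of the list.

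Of 12 kept genes of deoxynucleotide supply, 10 were negative, 0 passed 1.5-fold and the median was -0.22. The thymidine kinase TK1 was at 95.7 TPM in sip53, 129 TPM in siBACH1 and 146 TPM in siControl (-0.53, or -0.38 GC-adjusted). RRM2, the regulated subunit of ribonucleotide reductase, was at 139, 183 and 186 TPM in the same order (-0.34). SAMHD1, which degrades deoxynucleotides, was higher, at 40.6, 24.3 and 32.97 TPM (0.37). The other positive member was the kinase DCK (0.09), while DCTPP1 (-0.36) and DUT (-0.19), which hydrolyse nucleotides, were negative.

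Upstream of these genes, the E2F factors and G1/S regulators had 0 of 24 past 1.5-fold, 17 negative and a median of -0.13. E2F1 was at 13.3 TPM in sip53, 17.7 TPM in siBACH1 and 18.2 TPM in siControl (-0.36, or -0.20 GC-adjusted). The kinase CDK2 was at 45.9, 60.5 and 66.0 TPM (-0.44) and CDK4 at 112, 131 and 154 TPM (-0.38). The kinase inhibitor CDKN1B was at 29.9, 27.1 and 25.02 TPM (0.32), and cyclin D1 (CCND1) at 143, 105 and 126 TPM (0.26).

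Genes of mitosis and G2/M lay around the median of all genes. Of 35 kept members 0 passed 1.5-fold, 14 were negative and the median was 0.01. GC-adjusted, the median was -0.03 and 24 were negative. CDC20, the activator of the anaphase-promoting complex, was at 104 TPM in sip53, 121 TPM in siBACH1 and 137 TPM in siControl (-0.32). PRC1, a protein of the central spindle, was at 210 TPM, 189 TPM and 186 TPM in the same order (0.25). PKMYT1, an inhibitory kinase of CDK1 named after its value was seen and in no list, was at 50.1, 71.6 and 82.8 TPM (-0.64, or -0.43 GC-adjusted).

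Of 38 kept DNA repair and checkpoint genes, 28 were negative, against 4963 of all 9927 kept genes, and the median was -0.16. At least 1.5-fold lower was 1 of the 38, against 0.886% of all kept genes. The 1 was FANCD2, the central protein of interstrand crosslink repair, at 6.41 TPM in sip53, 11.9 TPM in siBACH1 and 12.2 TPM in siControl (-0.76, or -0.82 GC-adjusted). FANCB, of the complex that modifies FANCD2, was at 5.48, 7.87 and 8.87 TPM in the same order (-0.54, or -0.67 GC-adjusted, past 1.5-fold). The mismatch repair gene MLH3 was among the 15 highest of all genes, at 7.17, 4.01 and 3.597 TPM (0.90).

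LIN37, the DREAM subunit (chromosome 19, 35748576 to 35754519), had the lowest difference of the genes reported here. It was at 2.02 TPM in sip53, 2.92 TPM in siBACH1 and 6.81 TPM in siControl (-1.32, or -1.21 GC-adjusted). Both knockdown libraries were below the control, with a siBACH1 difference of -0.93. The other 13 kept members of the DREAM and MuvB list did not pass 1.5-fold. LIN9, LIN52 and LIN54, which form the same core, were at 0.24, 0.19 and 0.05, and the list's median was 0.01. MYBL2 (B-Myb), which binds the core when it activates transcription, was at 69.9, 71.1 and 91.4 TPM in sip53, siBACH1 and siControl (-0.31).

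Canonical p53 targets, in 3 lists of arrest and feedback, apoptosis, and repair and metabolism, lay around the median of all genes. Of 62 listed members 49 were kept, and the rest were under 5 TPM in both libraries, some lower and some higher in sip53. Among the 49, 2 were at least 1.5-fold higher (TIGAR and PLK2) and 0 lower, against 0.826% and 0.886% of all kept genes. Negative were 24 of the 49, against 4963 of all 9927 kept genes. The median was 0.01, against 0.00 over all kept genes. The medians of the 3 lists were 0.02, -0.04 and 0.02. CDKN1A, the inhibitor p21, was at 51.7 TPM in sip53, 43.2 TPM in siBACH1 and 54.7 TPM in siControl (-0.00). MDM2, the ubiquitin ligase of p53, was at 33.9, 31.5 and 30.3 TPM in the same order (0.23). BAX, a pore-forming death effector, was at 56.1, 63.2 and 60.0 TPM (-0.02). None of these 3 targets was lower in sip53 by more than 1.2-fold, but other members were. The 49 ranged from -0.52 (TNFRSF10A) to 0.82 (TIGAR), with the middle 50% between -0.13 and 0.10. CDKN1A and BAX were chosen after their values were seen.

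TIGAR, which lowers glycolytic flux, was at 12.9 TPM in sip53, 6.18 TPM in siBACH1 and 7.27 TPM in siControl (0.82, or 0.77 GC-adjusted). PLK2, a polo-like kinase, was at 76.6, 65.5 and 52.5 TPM in the same order (0.61). PANK1, a pantothenate kinase, was at 11.1, 8.79 and 7.87 TPM (0.51). TNFRSF10A, a death receptor, was at 5.03, 6.83 and 8.03 TPM (-0.52), and SFN (14-3-3 sigma) at 542, 544 and 708 TPM (-0.31, or -0.15 GC-adjusted). Of the p53 relatives, TP63 was at 210, 172 and 246 TPM (-0.15), and TP73 was at 10.8, 11.3 and 17.0 TPM (-0.53). TP73 was lower than in the control in both knockdown libraries, with a siBACH1 difference of -0.47. Of the 13 kept genes of the p53 family and its direct regulators, 0 passed 1.5-fold.

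**Figure D4:**
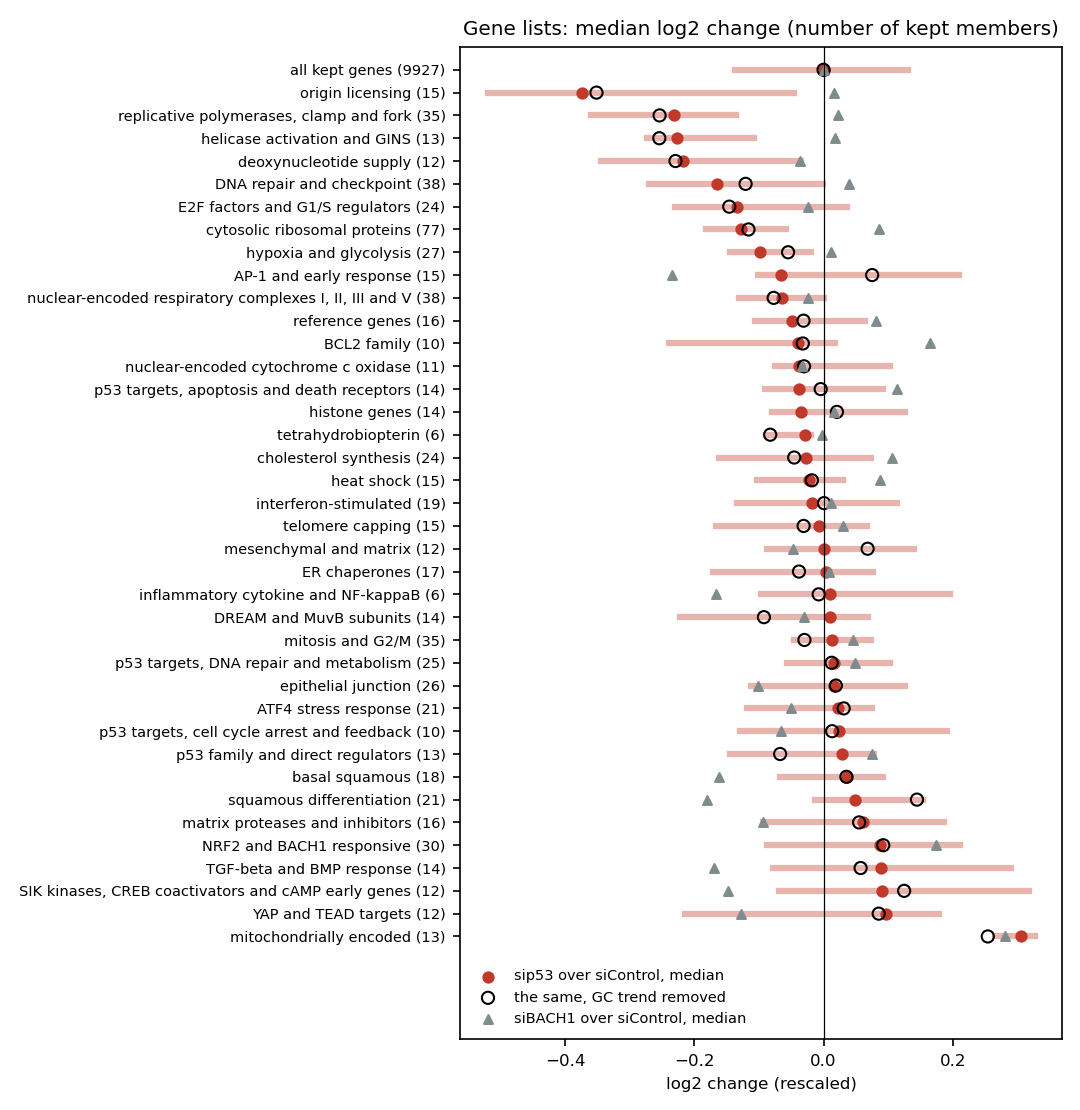
Median log2 difference of each gene list with at least 5 kept members in sip53 over siControl (red circles), the same after removal of the GC trend (open circles), and in siBACH1 over siControl (grey triangles). Pale bars span the middle 50% of members in sip53, and the number of kept members is in brackets. Origin licensing has the lowest median (-0.37), mitochondrially encoded genes the highest (0.31), and the p53 target lists lie near 0.

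Among the 15 highest genes, most were weakly expressed, and SIK1 and SMIM11A share sequence with another listed gene. Most were under 5 TPM in siControl and so were kept through sip53 alone, which favours a large difference. SIK1, a salt-inducible kinase of the AMPK family (chromosome 21, 43414483 to 43427131), was at 7.92 TPM in sip53, 3.90 TPM in siBACH1 and 3.13 TPM in siControl (1.18, or 1.29 GC-adjusted). Its transcript shares 93.9% of its 31-base words with SIK1B, which was at 20.6, 13.4 and 19.3 TPM in the same order. The sum of both was 28.6, 17.3 and 22.4 TPM, a difference of 0.41 that is under 1.5-fold. SIK2 (0.25) and SIK3 (0.02), the other kinases of the family, were nearer to 0. SMIM11A, a small membrane protein, stood at 1.38, but shares 46.7% of its words with SMIM11B, and their sum was at 0.00. TRAJ22, a T cell receptor joining segment of 63 bases, was at 5.03 TPM in sip53 and listed at 0 in siBACH1 and siControl, so no fold is given.

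The other genes among the 15 highest were ARHGAP33 (1.32), TRIM66 (1.19), TSPAN2 (1.18), COX6B1 (1.14), S100P (1.12), TMC4 (1.07), BCAS1 (1.04), SLC25A53 (1.01), PSCA (0.89), ADH1C (0.89) and ALDH1A1 (0.88), besides MLH3. COX6B1, a subunit of cytochrome c oxidase, was at 11.2 TPM in sip53, 4.38 TPM in siBACH1 and 4.81 TPM in siControl. The other 10 kept nuclear-encoded subunits had a median of 383 TPM in sip53 and 410 TPM in siControl, so COX6B1 was listed far below its partners in both. ALDH1A1, a retinaldehyde dehydrogenase, was at 76.4, 72.2 and 43.3 TPM in sip53, siBACH1 and siControl, and was higher than the control in both knockdown libraries. PSCA, a surface antigen of epithelia, was at 54.4, 36.7 and 30.5 TPM (0.89, or 1.05 GC-adjusted). TMC4, a membrane channel-like protein, was at 16.1, 10.4 and 7.59 TPM. S100P, a calcium-binding protein, was at 8.41, 10.1 and 3.55 TPM, highest in siBACH1.

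Among the 15 lowest genes, 3 were well expressed in siControl and close to it in siBACH1. ACLY, the enzyme that makes cytosolic acetyl-CoA from citrate, was at 68.1 TPM in sip53, 132 TPM in siBACH1 and 136 TPM in siControl (-0.91, or -0.87 GC-adjusted). CMTM6, which stabilises PD-L1 at the cell surface, was at 34.5, 80.9 and 73.1 TPM in the same order (-0.99, or -1.10 GC-adjusted). PSMC6, an ATPase of the proteasome, was at 35.8, 73.2 and 74.1 TPM (-0.95, or -1.08 GC-adjusted). In all 3 the sip53 library stood apart from both others, and the GC-adjusted difference stayed past 1.5-fold.

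HARS2, the mitochondrial histidyl-tRNA synthetase, was at 9.04 TPM in sip53, 21.3 TPM in siBACH1 and 20.5 TPM in siControl (-1.03). CTC1, of the telomere-capping CST complex, was at 4.03, 8.42 and 11.3 TPM in the same order (-1.23), and no other of the 15 kept telomere capping genes passed 1.5-fold. RPS10, a small-subunit ribosomal protein, was at 11.0, 24.2 and 24.7 TPM (-1.03). The other 76 kept cytosolic ribosomal protein genes had a median of 1197 TPM in sip53 and 1352 TPM in siControl. RPS10 was thus listed far below that median in both. It shares 34.1% of its words with the read-through RPS10-NUDT3, and the sum of both was 23.4, 35.8 and 34.2 TPM (-0.45, under 1.5-fold). The remaining ones reported here were SERAC1 (-1.29), DERPC (-1.25, with no GC-adjusted value), GJC1 (-1.20), FAM81A (-1.01), CAVIN3 (-0.98), DZIP1L (-0.93) and NANOS1 (-0.93), all under 20 TPM in the 3 libraries. These genes, like CTC1 and LIN37, were under 5 TPM in sip53 and so were kept through siControl alone.

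**Figure D5:**
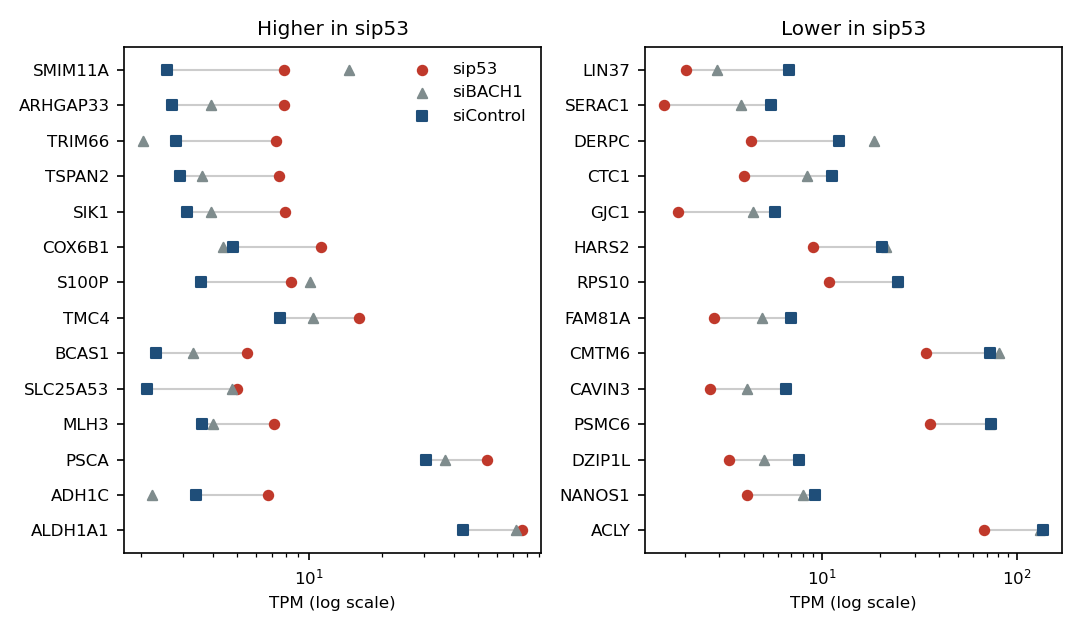
TPM (log scale) in sip53 (red circles), siBACH1 (grey triangles) and siControl (blue squares) of the genes with the highest (left) and the lowest (right) log2 difference of sip53 over siControl, without TRAJ22, which is listed at 0 in siControl, and without the targeted transcript. For HARS2, RPS10, CMTM6, PSMC6 and ACLY the siBACH1 and siControl points lie close together, and sip53 lies lower.

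Other well expressed genes past 1.5-fold, named after their values were seen, were few. GPNMB, a transmembrane glycoprotein of lysosomes and melanosomes, was at 547 TPM in sip53, 267 TPM in siBACH1 and 370 TPM in siControl (0.64). CCDC80, a matrix-associated protein, was at 202, 138 and 141 TPM (0.59, or 0.53 GC-adjusted, under 1.5-fold). IGFBP6, a binding protein of insulin-like growth factors, was at 78.2, 78.3 and 129 TPM (-0.64, or -0.47 GC-adjusted, under 1.5-fold), at the same level in both knockdown libraries.

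In squamous differentiation genes, 3 of 21 kept members were at least 1.5-fold higher, 0 were lower and the median was 0.05 (0.14 GC-adjusted). Over all kept genes 0.826% were at least 1.5-fold higher. The 3 were S100P, DAPL1 and SERPINB3. S100P was under 5 TPM in siControl and so was kept through sip53 alone, which favours a large difference. Among all kept genes at 5 to 10 TPM, the level of S100P and SERPINB3, 4.88% passed 1.5-fold in either direction. DAPL1, a gene of early epithelial differentiation, was at 19.0 TPM in sip53, 5.45 TPM in siBACH1 and 11.3 TPM in siControl (0.78). SERPINB3, a serpin of squamous epithelium, was at 9.54, 2.74 and 5.58 TPM (0.75), and shares 38.3% of its words with SERPINB4, which was below 5 TPM in every library. LCN2, a siderophore-binding protein, was at 111, 81.6 and 78.1 TPM (0.58). The lowest member was SPRR1B (-0.46), a cornified envelope precursor. Basal squamous genes had 0 of 18 past 1.5-fold and a median of 0.04. Of these COL17A1, the hemidesmosome collagen, was at 39.8, 17.6 and 29.1 TPM (0.51, or 0.59 GC-adjusted, past 1.5-fold). The lowest was KRT14, a keratin of basal cells, at 166, 100.1 and 215 TPM (-0.29, or -0.18 GC-adjusted), which shares 18.3% of its words with KRT16. DAPL1, SERPINB3 and COL17A1 were highest in sip53 and lowest in siBACH1.

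Mitochondrially encoded and ribosomal protein genes lay on opposite sides of 0, with 1 member past 1.5-fold. All 13 mitochondrially encoded genes were higher in sip53, between 0.17 and 0.50, with a median of 0.31 (0.25 GC-adjusted), and their share of TPM was 29.2% in sip53, 28.2% in siBACH1 and 24.8% in siControl. Their siBACH1 median was 0.28. Nuclear-encoded subunits of complexes I, II, III and V had a median of -0.06, with 28 of 38 negative. Cytosolic ribosomal protein genes had 73 of 77 members below 0 in sip53. Their median was -0.13 in sip53 (-0.12 GC-adjusted) and 0.09 in siBACH1. RPS10, listed far below the median level of the others, was the 1 past 1.5-fold. A TPM is a share of its library, so a larger share for one group lowers the others, and rescaling to the median ratio removes this for the typical gene only.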

How the data were processed

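RNA was taken from Cal-33 cells and sequenced, with 1 library per group. Per the labels' protocols, libraries were made with a SMARTER kit for mRNA. The deposited table gives TPM per gene symbol for the 3 libraries. The submitters' processing notes name bcl2fastq 2.20 and kallisto 0.44.0, a pseudoaligner that divides reads among similar transcripts, and the builds GRCh38, GRCm38 and mm10 with no role for each. How transcripts were annotated and summed per symbol, and whether strand was used, was not given in the sources used here. Listed TPM summed to 978656 in sip53, 979148 in siBACH1 and 978371 in siControl.

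Symbols were matched to RefSeq (28816 of 28890). Left out were 9067 pseudogenes, 116 read-through symbols and 1 clone, of which 162 pseudogenes and 23 read-throughs had at least 5 TPM. Log2 differences used a pseudocount of 1 TPM after rescaling of sip53 by 0.949. GC content came from the longest coding GENCODE v29 transcript, and the trend was a running median over 501 genes. Copies were genes sharing 31-base words. In the alternative with copies summed, kept genes sharing 40% or more were joined. The calculation was tested on simulated data (python 3.11.15, numpy 2.4.6, pandas 2.3.3, figures with matplotlib 3.10.9). No statistical test fits 1 library per group.

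Named genes were the 15 highest and 15 lowest, GINS2, CDT1, SIK1 and LIN37, and up to 4 members of each of 40 lists with the largest difference. Other members given as examples, such as ORC2 to ORC6, GMNN, CDC6, CDKN1A, BAX, RRM2, PCNA, POLE4 and DCK, were chosen after their values were seen. The members and lists were chosen with earlier results of these data known. The transcript targeted by the p53 siRNA counts among the genes and is not reported or plotted here. Alternatives were other pseudocounts, minimum levels, scalings and gene sets, GC removal and summed copies.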

Additional observations from a re-analysis of the deposited data

How the results depend on the processing

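With 1 library per group, no replicate could be left out and no difference has a replicate check. No paired analysis was possible because each group holds a single library. The counts of genes at least 1.5-fold higher in sip53 (82) and of genes at least 1.5-fold lower in sip53 (88) became, in this order, 25 and 27 with a pseudocount of 5 TPM, 175 and 193 with a minimum of 1 TPM, 19 and 31 with a minimum of 20 TPM, and 52 and 151 with no rescaling. GC removal left 58 lower genes. Those of genes at least 2.0-fold higher in sip53 (11) and genes at least 2.0-fold lower in sip53 (9) became 1 and 1 with a pseudocount of 5 TPM, 29 and 22 with a minimum of 1 TPM, 0 and 3 with a minimum of 20 TPM, and 17 and 19 with all listed symbols kept. The lower count became 16 with a pseudocount of 0.1 TPM. The other counts stayed within 1.5 times.

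No rescaling moves every difference by about -0.08 on the log2 scale. It turned the sign of 15 of 41 list medians, and GC removal turned 8. The medians of the origin licensing, helicase activation and polymerase lists stayed negative, at -0.45, -0.29 and -0.30 with no rescaling. Of 40 named genes past 1.5-fold, 27 stayed so with a pseudocount of 5 TPM and 38 with no rescaling (PLK2 was among those that did not). With GC removed 37 of 39 stayed (CDT1 and MCM5 did not), and with copies summed 38 (SIK1 and SMIM11A did not). RPS10 and its read-through share under 40% and were not summed in that count. None of the 40 turned direction. Depth is unknown, and low TPM carries the wider scatter.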

Other observations

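A set of 3 genes past 1.5-fold, not all in the same direction, lies close together on chromosome 19, a pattern noticed after the values were seen. COX6B1 (1.14), LIN37 (-1.32) and ARHGAP33 (1.32) fall within 140500 bases (35648323 to 35788822, RefSeq on GRCh38.p14), which hold 8 kept genes. COX6B1 and ARHGAP33 were under 5 TPM in siControl, and LIN37 was under 5 TPM in sip53. All 3 were thus kept only through the library where they were higher, which favours a large difference. Over all kept genes 0.826% were at least 1.5-fold higher and 0.886% lower. Whether the closeness of the 3 has a meaning was not tested. The other 5, KMT2B, IGFLR1, U2AF1L4, PSENEN and PROSER3, lay between -0.17 and 0.18, with a median of 0.05. ARHGAP33, a RhoGAP, was at 7.84 TPM in sip53, 3.90 TPM in siBACH1 and 2.70 TPM in siControl. PSENEN, a subunit of gamma-secretase and the most abundant of the 8, was at 70.6, 77.8 and 71.7 TPM in the same order.

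Smaller lists held single members past 1.5-fold, where 0.826% of all kept genes were at least 1.5-fold higher. ADAMTS1, a secreted metalloprotease, was at 9.10 TPM in sip53, 6.58 TPM in siBACH1 and 5.27 TPM in siControl (0.76), as the 1 of 16 matrix proteases and inhibitors. SMAD4, the shared mediator of TGF-beta signals, was at 6.92, 6.78 and 4.204 TPM (0.67), as the 1 of 14 TGF-beta and BMP genes. It differed by 0.66 in siBACH1. SMAD4 was under 5 TPM in siControl and so was kept through sip53 alone, which favours a large difference. BACH1 itself was at 19.6, 4.30 and 15.2 TPM (0.42, or 0.30 GC-adjusted). It is the highest of the 30 kept members of the NRF2 and BACH1 responsive list. That list had 0 past 1.5-fold and a median of 0.09.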
